A study of Mus musculus with 6 samples.

Results

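The nuclear genes for the subunits of the mitochondrial respiratory chain and ATP synthase were followed in whole mouse fetuses. To look into neural tube defects that come with too much KLF12, a zinc-finger transcription factor, the study set 3 wild-type (WT) fetuses against 3 fetuses with KLF12 overexpression. All were of the C57BL/6 strain and were taken at 9.0 days post coitum (dpc). The labels name no promoter, allele or cell type for the overexpression, and do not say whether a library is 1 fetus, a pool or a litter mate of another, so the spread between libraries may be partly technical. Genes were chosen by symbol alone: protein-coding genes named Ndufa, Ndufb, Ndufc, Ndufs or Ndufv with a number (complex I), Sdha to Sdhd (complex II), Uqcr (complex III), Cox4 to Cox8 (complex IV) and Atp5 (complex V). The rule names 87 genes, of which 84 are among the 17741 rows of the deposited table. They are 39 genes of complex I, 4 of complex II, 8 of complex III, 16 of complex IV and 17 of complex V. Cox7b2, Cox8c and Ndufb1 had no row and were not analysed here.

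The respiratory chain sits in the inner mitochondrial membrane. Complexes I and II pass electrons from NADH and succinate to ubiquinone, complex III passes them to cytochrome c and complex IV to oxygen, and complex V, the ATP synthase, uses the proton gradient this makes. Most subunits are encoded in the nucleus and imported, and are built together with a few subunits encoded in mitochondrial DNA. Around neural tube closure the mouse embryo relies heavily on glycolysis, and oxidative metabolism gains weight as the placental circulation is set up. Levels below are FPKM, fragments scaled to transcript length and to the mapped fragments of the library, which can be compared between genes because of the division by length. Differences are KLF12 minus WT on the log2(FPKM + 1) scale, where changes of low genes come out too small.

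One of the libraries, KLF12 library 3, stood out in its summed FPKM. Its FPKM summed to 528236, against 598031 to 613492 in WT and 614029 and 635381 in KLF12 libraries 1 and 2. From the step that a single fragment makes in low values, the depth was roughly estimated at 14600000 fragments in KLF12 library 3 and 16000000 to 16600000 in the other 5. The Y-linked gene Ddx3y was listed at 0 in KLF12 libraries 1 and 2 and at 6.62 FPKM in library 3, with 1.80 to 4.45 FPKM in WT. On this measure KLF12 libraries 1 and 2 were unlike the other 4. Klf12 itself was at 16.4, 15.2 and 23.9 FPKM in the KLF12 libraries and at 1.99, 2.11 and 1.32 FPKM in WT, so it was higher in all 3 KLF12 libraries than in any WT library. The main results below are given with and without library 3. Leaving it out sets KLF12 libraries with Ddx3y at 0 against WT libraries that all have it, so in that fit KLF12 and the absence of Ddx3y cannot be told apart.

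No respiratory chain gene was called by limma's test with Benjamini-Hochberg adjustment over all genes, which does not show that none changed. Of the 84 genes, 83 averaged 1 FPKM or more over the 6 libraries and were tested, and 0 were called at an adjusted p under 0.05, while 0.733% of all 12141 genes tested were called (0.0988% higher and 0.634% lower). At an unadjusted p under 0.05 there were 3 respiratory chain genes, or 3.61%, against 10.9% of all genes. The 3 were Cox5a, Atp5md and Atp5mpl, and the smallest adjusted p, for Cox5a, was 0.427. The median log2 difference was -0.14, against -0.02 over all genes tested, and 74 of the 83 values were negative, 89.2% against 52.7% of all genes. Groups that did not overlap were seen for 10 genes, all lower in KLF12, or 12%, against 16.9% of all genes in either direction (8.98% lower and 7.90% higher).

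The negative values came with KLF12 library 3. Set against the WT mean, the median over the 83 genes was -0.07 in KLF12 library 1, 0.08 in library 2 and -0.44 in library 3, and the WT libraries lay at -0.003, -0.02 and 0.03. In library 3, 68 of the 83 genes had their lowest value of all 6 libraries, 81.9% against 22.3% of all genes tested, and 0 had their highest, against 30.2% of all genes. Among the 70 genes that averaged 50 FPKM or more, 62 were lowest there. Without library 3 the median difference was 0.002, with 42 positive and 41 negative values, so 49.4% lay below 0 against 54.8% of all genes. One gene was then called, Atp5g2, in the higher direction, in the fit where the groups also differ in Ddx3y, while 2.63% of all genes were called in that fit (0.725% higher and 1.90% lower).

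**Figure D1:**
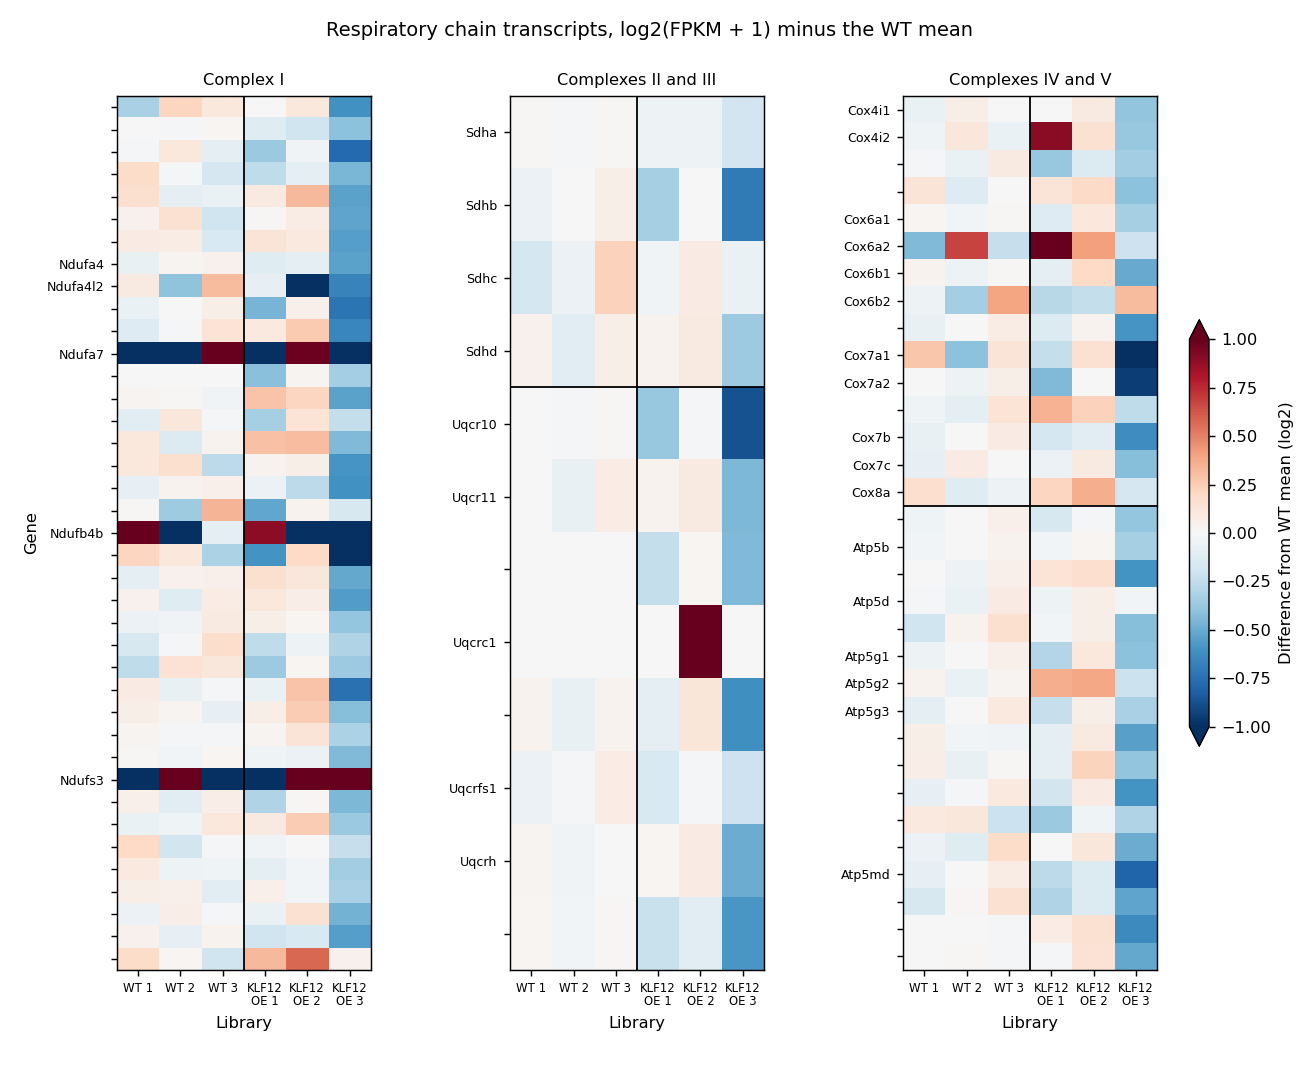
Each row is 1 of the 83 tested genes and each column a library; colour is log2(FPKM + 1) minus the WT mean of that gene, cut off at -1 and 1, and the genes chosen by the naming rule are labelled. KLF12 library 3 lies below the WT mean for 79 of the 83 genes, and KLF12 libraries 1 and 2 for 55 and 25.

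Median transcript levels differed between the complexes. In WT the median gene of complex I was at 102 FPKM, of complex II at 114, of complex III at 161, of complex IV at 205 and of complex V at 322 FPKM (means of 3 library medians). Complex V lay above complex IV and complex IV above complex III in each of the 6 libraries. Complexes I and II did not keep an order, since the medians were 101.9 and 101.2 FPKM in KLF12 library 1 and 72.9 and 84.2 FPKM in library 3. Together the 84 genes made up 2.57%, 2.59% and 2.61% of all FPKM in WT, and 2.45%, 2.62% and 2.19% in the KLF12 libraries.

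**Figure D2:**
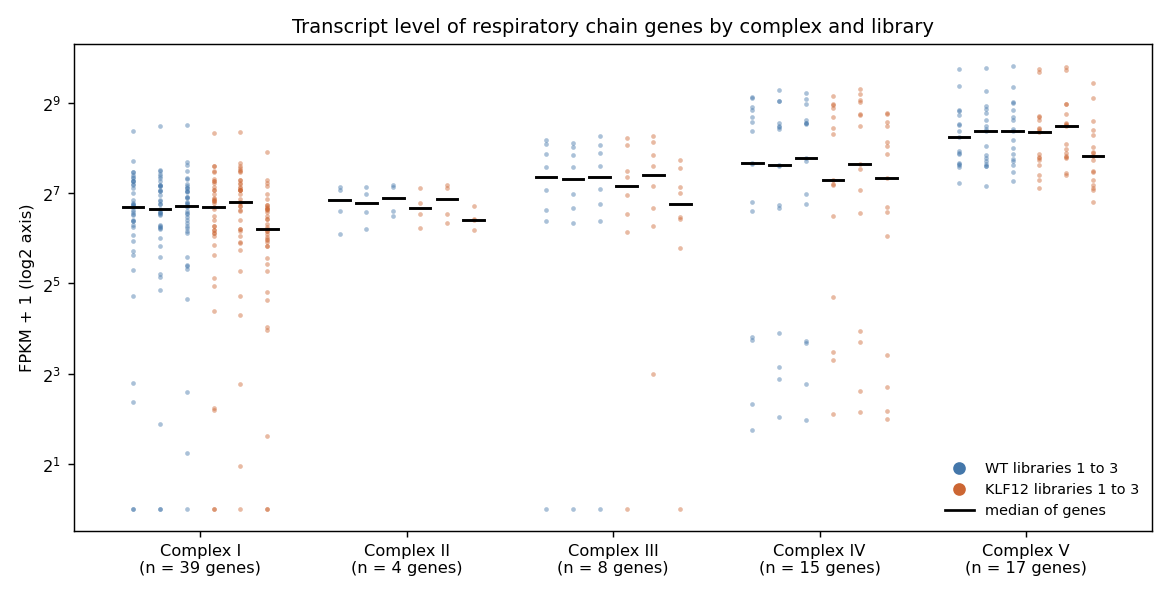
Points are single genes on a log2 axis of FPKM + 1, for 6 libraries in each of complexes I to V, and bars are medians over genes. The medians of KLF12 library 3, the last column of each complex, lie at 72.9, 84.2, 107.5, 160 and 225.5 FPKM from complex I to V.

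In complex I, 0 of 39 genes passed the test, with a median difference of -0.16 and 36 negative values. Without KLF12 library 3 the median was -0.02, with 20 negative values. The 7 core subunits, which hold the flavin and iron-sulfur clusters and the ubiquinone site, had a median of -0.13, and 0.01 without library 3. Ndufv2, an iron-sulfur subunit of the NADH-oxidising arm (NCBI gene 72900), was at 84.4, 77.2 and 83.8 FPKM in WT and at 71.2, 73.4 and 55.5 FPKM in the KLF12 libraries. The groups did not overlap, and library 3 was the lowest. The log2 difference was -0.30 ± 0.14 (SE), adjusted p = 0.471 by limma, and -0.18 without library 3.

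Among the accessory subunits of complex I, Ndufa4 had the highest level. It is named as a complex I gene but its product is now counted in complex IV. Ndufa4 was at 332, 358 and 361 FPKM in WT and at 322, 328 and 241 FPKM in KLF12, so the groups were separate, with a difference of -0.25 (95% interval -0.58 to 0.08), and -0.11 without library 3. Moving it and its paralogue Ndufa4l2 to complex IV gave medians of -0.16 for complex I and -0.13 for complex IV. Ndufa10, a matrix-side accessory subunit, also had separate groups, at 74.2 to 76.0 FPKM in WT and 68.9, 65.3 and 56.3 FPKM in KLF12.

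Ndufv3, a small accessory subunit of the NADH-oxidising arm (NCBI gene 78330), went the other way. It was at 105, 93.7 and 80.5 FPKM in WT and at 116, 138 and 95.2 FPKM in the KLF12 libraries. The groups overlapped, since KLF12 library 3 lay below WT library 1. The difference was 0.31 ± 0.16 (SE), with limma adjusted p = 0.544, and 0.45 without library 3 (adjusted p = 0.123). It had the highest difference of the 70 genes that averaged 50 FPKM or more, which ran from -0.46 to 0.31 with standard errors of 0.11 to 0.23.

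Ndufb4 has copies named Ndufb4b and Ndufb4c, and the counting could split reads between them. Ndufb4c alone was at 60.2, 55.9 and 41.4 FPKM in WT and at 33.8, 59.7 and 23.8 FPKM in KLF12. Summed, the 3 were at 148, 119 and 146 FPKM in WT and at 94.2, 143 and 96.7 FPKM in KLF12. KLF12 libraries 1 and 3 were below all WT sums, and library 2 lay among them.

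In complex II, which also works in the tricarboxylic acid cycle, 0 of 4 genes were called, with 4 negative values and a median of -0.09, and -0.01 without KLF12 library 3. Sdha, its flavoprotein (NCBI gene 66945), was among the 3 genes with the lowest coefficient of variation over the 6 libraries (5.12%). It was at 96.4, 94.3 and 96.4 FPKM in WT and at 92.6, 92.5 and 83.6 FPKM in KLF12, so the groups were separate but close. Sdhb, the iron-sulfur subunit, was at 133, 139 and 144 FPKM in WT and at 110, 138 and 84.7 FPKM in KLF12. Its groups overlapped through KLF12 library 2, and the difference was -0.35 ± 0.17 (SE), limma adjusted p = 0.514, and -0.17 without library 3. The membrane anchors Sdhc and Sdhd had differences of -0.008 and -0.08, and 0.02 and 0.06 without library 3.

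In complex III, 0 of 8 genes were called, with 7 negative values and a median of -0.16, and -0.03 without KLF12 library 3. Uqcr10, a small membrane subunit (NCBI gene 66152), was at 234, 231 and 235 FPKM in WT and at 179, 230 and 127 FPKM in KLF12. KLF12 library 2 lay just below the WT range and library 3 far below it, for a difference of -0.42 ± 0.19 (SE), limma adjusted p = 0.474. Without library 3 it was -0.20. Uqcrq, a ubiquinone-binding subunit, was also separate between the groups, at 79.99 to 82.40 FPKM in WT and 54.1 to 75.7 FPKM in KLF12. Uqcr11, with the highest level in this complex, and the hinge protein gene Uqcrh had differences of -0.11 and -0.13, and 0.06 and 0.05 without library 3. The Rieske iron-sulfur protein gene Uqcrfs1 varied little, at 97.8 to 107 FPKM in WT and 88.11 to 100.52 FPKM in KLF12.

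In complex IV, 0 of 15 tested genes were called, with a median of -0.12, and 0.02 without KLF12 library 3. Its catalytic subunits are encoded in mitochondrial DNA, and the nuclear subunits surround them. Cox5a, a matrix-side subunit (NCBI gene 12858), was at 201, 195 and 217 FPKM in WT and at 157, 186 and 160 FPKM in KLF12. All 3 KLF12 libraries lay below all WT libraries, with library 1 the lowest. The difference was -0.29 ± 0.12 (SE; limma adjusted p = 0.427), and -0.26 without library 3 (adjusted p = 0.197). With the length trend described below removed from all 6 libraries it was -0.17 (adjusted p = 0.609). Cox7b, a small membrane subunit, was separate too, at 96.0 to 107 FPKM in WT and at 89.4, 93.4 and 65.6 FPKM in KLF12. Cox7c, with the highest level of the complex, was at 557, 624 and 594 FPKM in WT and at 569, 630 and 439 FPKM in KLF12. KLF12 library 2 was slightly above the WT range and library 3 well below it.

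Several complex IV subunits come in isoforms that differ between tissues, and the common form was the main one in all 6 libraries. Cox4i1 was at 478 to 522 FPKM in WT, against 12.3 to 14.0 FPKM for Cox4i2, an isoform known for its response to low oxygen. Cox4i2 was at 24.96, 14.4 and 9.70 FPKM in the KLF12 libraries, so library 1 was high, library 3 low and the groups overlapped. As a share of both transcripts, Cox4i2 made up 2.55%, 2.61% and 2.39% in WT and 4.77%, 2.64% and 2.48% in KLF12 (exact two-sided permutation p = 0.4, adjusted p = 0.64 over 8 such shares). The muscle isoforms Cox6a2 and Cox7a1 made up 0.723% ± 0.412 and 5.17% ± 1.16 of their pairs in WT, and 1.19% ± 0.714 and 4.92% ± 1.41 in KLF12 (SD, n = 3; exact permutation p = 0.5 and 0.7). The testis isoform Cox6b2 was at 3.13 to 5.88 FPKM in all libraries, and the muscle isoform Cox8b, at 0 to 0.23 FPKM, was the 1 gene under the filter. Ndufa4l2, another gene known to respond to low oxygen, was at 4.20, 2.69 and 5.09 FPKM in WT and at 3.62, 0.95 and 2.07 FPKM in KLF12. Its share of the Ndufa4 pair was 1.13% ± 0.338 and 0.750% ± 0.420 (exact permutation p = 0.3), and its groups overlapped.

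Cox7a2, the common form of its subunit (NCBI gene 12866), had the lowest difference of the 70 genes that averaged 50 FPKM or more. It was at 199, 192 and 207 FPKM in WT and at 146, 198 and 103 FPKM in KLF12, a difference of -0.46 ± 0.21 (SE), limma adjusted p = 0.465. KLF12 libraries 1 and 3 were low and library 2 lay within the WT range, and without library 3 the difference was -0.23. Cox7a2l, whose product helps to join complexes III and IV into supercomplexes, was at 111, 106 and 125 FPKM in WT and at 145, 134 and 95.3 FPKM in KLF12. There KLF12 libraries 1 and 2 were above all WT libraries and library 3 below them.

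In complex V, 0 of 17 genes were called, with 16 negative values and a median of -0.14; without KLF12 library 3 the median was 0.002, with 8 negative values. Atp5b, the catalytic beta subunit (NCBI gene 11947), had the highest level of all 84 genes. It was at 858, 872 and 899 FPKM in WT and at 861, 888 and 694 FPKM in KLF12, so library 3 was low and the others lay within the WT range. The 5 genes of the F1 sector, which holds the catalytic sites and the central stalk, had differences of -0.19 to -0.009, the last for Atp5d, and their median went from -0.11 to 0.002 without library 3. Atp5d had the lowest coefficient of variation of the 83 genes (4.34%) and was at 229 to 254 FPKM in WT and 231 to 250 FPKM in KLF12, library 3 included. The 4 genes of the peripheral stalk had a median of -0.13, and 0.06 without library 3.

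The 5 small membrane subunits of ATP synthase had a median of -0.24, and -0.20 without KLF12 library 3, when 4 of 5 were still negative. Whether they differ from the rest of complex V was not tested. Atp5md, also called DAPIT (NCBI gene 66477), was at 371, 395 and 413 FPKM in WT and at 327, 358 and 225 FPKM in KLF12. All 3 KLF12 libraries were below all WT libraries. The difference was -0.40 ± 0.17 (SE), limma adjusted p = 0.450, and -0.20 without library 3. Atp5mpl, a proteolipid (NCBI gene 70257), was at 232, 262 and 289 FPKM in WT and at 210, 236 and 180 FPKM in KLF12. Here KLF12 library 2 lay above WT library 1, and the difference was -0.32 ± 0.14 (SE), limma adjusted p = 0.455, and -0.22 without library 3. The 5 transcripts had a median length of 371 bases, and with the length trend described below removed their median was -0.13.

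The c subunit of ATP synthase, which forms the rotating ring in the membrane, is encoded by 3 genes that give the same mature protein and differ in their import sequence. Atp5g2 (NCBI gene 67942) was at 659, 614 and 656 FPKM in WT and at 825, 842 and 554 FPKM in the KLF12 libraries. KLF12 libraries 1 and 2 were above all WT libraries and library 3 was below them. The difference was 0.18 ± 0.17 (95% interval -0.21 to 0.57; limma adjusted p = 0.802). Without library 3, when the groups also differ in Ddx3y, it was 0.37 with limma adjusted p = 0.0336, and with the length trend removed from all 6 libraries 0.29 with adjusted p = 0.220. Atp5g1 was at 200, 208 and 214 FPKM in WT and at 169, 223 and 156 FPKM in KLF12. Atp5g3 was at 456, 484 and 518 FPKM in WT and at 413, 505 and 388 FPKM in KLF12. Neither was called with or without library 3.

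Given as a share of the 3 transcripts, which cancels the scaling of a library, Atp5g2 was higher in each KLF12 library than in any WT library. It made up 50.1%, 47.0% and 47.3% in WT and 58.6%, 53.6% and 50.5% in KLF12 (means 48.1% ± 1.74 and 54.2% ± 4.12, SD, n = 3). KLF12 library 3 was nearest to WT, just above WT library 1. The exact two-sided permutation test gave p = 0.1, the smallest that 3 against 3 can give, and 0.4 adjusted over the 8 shares computed. Atp5g1 made up 15.2%, 16.0% and 15.4% in WT and 12%, 14.2% and 14.2% in KLF12, also without overlap (exact permutation p = 0.1). Atp5g3 made up 36.3% ± 1.45 and 32.3% ± 3.00, with overlap (p = 0.2, exact permutation). The 3 shares are parts of the same sum, so a higher share of Atp5g2 must come with a lower joint share of Atp5g1 and Atp5g3. They are not independent results. A share does not cancel the length trend described below. The transcript of Atp5g1 has 2655.5 bases, against 731 for Atp5g2 and 718.5 for Atp5g3. Shares with that trend removed were not computed.

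**Figure D3:**
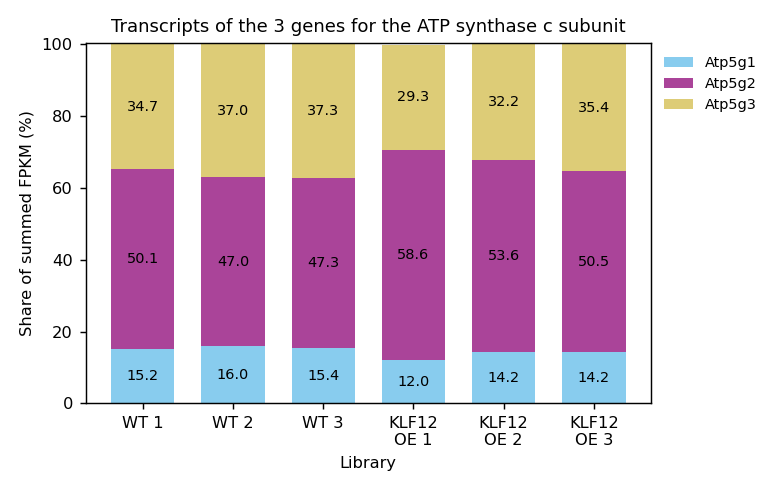
Stacked bars give the percentage of the summed FPKM of Atp5g1, Atp5g2 and Atp5g3 that each gene took in the 6 libraries. The Atp5g2 segment is 50.5% to 58.6% in the KLF12 libraries and 47.0% to 50.1% in WT.

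Because the 3 genes make the same subunit under separate control regions, the 250 bases before each start are shown, from RefSeq (build GRCm38.p6, 5′ to 3′ on the strand of the gene, the minus strand for all 3). Capitals mark the letters GCGCA-N-GCGC (N is any base), the core of sites of the nuclear respiratory factor NRF1, and TCAAGGTCA, the letters bound by the oestrogen-related receptors, on either strand. The positions are chr11:96075632-96075881 for Atp5g1, chr15:102671048-102671297 for Atp5g2 and chr2:73911327-73911576 for Atp5g3.
Atp5g1: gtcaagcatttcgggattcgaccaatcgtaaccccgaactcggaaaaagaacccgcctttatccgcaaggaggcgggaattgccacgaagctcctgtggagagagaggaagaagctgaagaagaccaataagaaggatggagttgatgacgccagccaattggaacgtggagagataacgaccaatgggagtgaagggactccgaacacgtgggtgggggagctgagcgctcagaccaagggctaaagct
Atp5g2: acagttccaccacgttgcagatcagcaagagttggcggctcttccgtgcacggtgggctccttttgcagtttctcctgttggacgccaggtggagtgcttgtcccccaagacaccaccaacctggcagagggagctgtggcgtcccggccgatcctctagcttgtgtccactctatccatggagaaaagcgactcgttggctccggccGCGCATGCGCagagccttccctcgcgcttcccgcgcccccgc
Atp5g3: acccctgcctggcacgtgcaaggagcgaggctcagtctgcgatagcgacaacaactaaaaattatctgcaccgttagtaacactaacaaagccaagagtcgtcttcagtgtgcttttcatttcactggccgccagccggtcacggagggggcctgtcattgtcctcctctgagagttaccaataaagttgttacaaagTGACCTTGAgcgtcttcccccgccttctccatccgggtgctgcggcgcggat
Atp5g2 held the NRF1 letters from 42 bases before its start, and Atp5g3 held the receptor letters from 52 bases before it. Atp5g3 also held the NRF1 letters 13 bases after its start, outside the bases shown. Neither was found in the window of Atp5g1. These matches describe the sequence and were not tied to the expression values.

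NRF1 is the factor best known for driving nuclear respiratory genes, and its letters were common in this group. For 68 of the 84 genes, 73 promoter windows were available, from 250 bases before to 50 bases after the start. GCGCA-N-GCGC stood on either strand in 18 of them (24.7%), against 6.38% of 21263 windows of protein-coding genes. CCGGAAG, the core bound by GABP and other ETS factors, stood in 23.3% against 11.6%, and AAGATGGC, bound by YY1, in 13.7% against 3.05%. The receptor letters TCAAGGTCA stood in 2.74% against 0.334%. At least 1 of the NRF1, ETS and YY1 motifs was in 39 of the 73 windows, and 4 held both of the first named. For these joint counts no share over all windows is given, so they cannot be read as high or low. The GC box GGGCGG stood in 38.4% against 46.2%. CAGTGGG, a site described for KLF12 in the promoter of Tfap2a, was in 8.22% against 6.95%. Matches of different motifs overlapped once, for CCGGAAG and GGGCGG in Ndufs3. One window each from complexes I, II and IV shows the NRF1 letters in capitals within 15 bases on either side, from RefSeq, GRCm38.p6, minus strand. They lie at chr4:123718260-123718299 (Ndufs5), chr9:50603904-50603943 (Sdhd) and chr5:115349096-115349135 (Cox6a1).
Ndufs5: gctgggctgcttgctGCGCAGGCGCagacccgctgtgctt
Sdhd: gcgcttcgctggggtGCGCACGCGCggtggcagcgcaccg
Cox6a1: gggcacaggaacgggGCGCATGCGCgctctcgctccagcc
The differences of Ndufs5, Sdhd and Cox6a1 were -0.007, -0.08 and -0.12, and 0.17, 0.06 and -0.01 without KLF12 library 3.

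**Figure D4:**
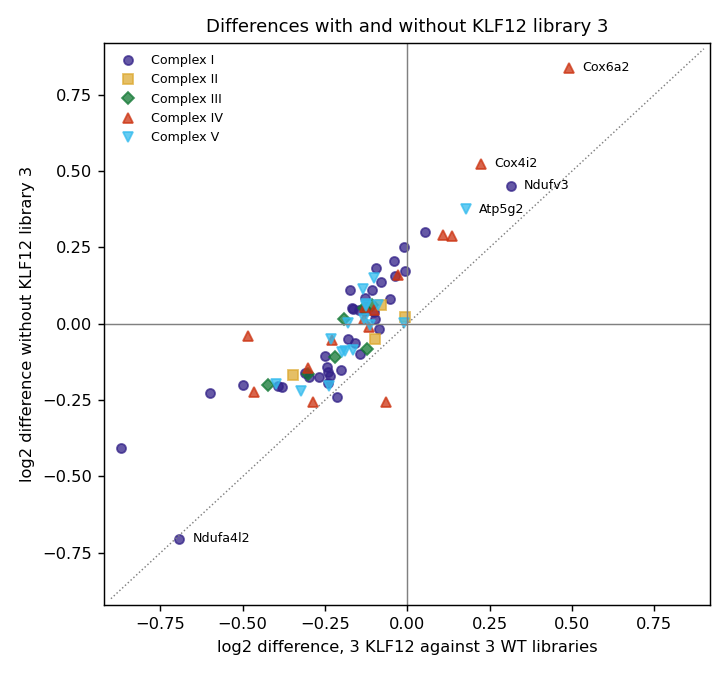
Each point is a gene, with the log2 difference from all 6 libraries on the x axis and that without KLF12 library 3 on the y axis; 81 of 83 genes are drawn, without Ndufs3 and Uqcrc1, which lie outside the axes. The dotted line marks equal values, and the median moves from -0.14 on the x axis to 0.002 on the y axis.

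Transcript length moved with the low values in KLF12 library 3. Respiratory chain transcripts are short, with a median of 755 bases against 2887 over all genes tested that had a length. In library 3, the median difference from the WT mean over all genes went from -0.41 for transcripts of more than 500 and up to 750 bases to 0.40 for those over 6000 bases. Across 11674 genes, which are not independent, Spearman's rho of that difference with length was 0.445 in library 3, -0.24 in library 2 and 0.04 in library 1. Within the respiratory chain genes alone rho was 0.286 in library 3, -0.001 in library 2 and 0.088 in library 1. With the trend of each library on length removed, the median of the 81 respiratory chain genes with a length was -0.12 in library 3, 0.003 in library 1 and -0.02 in library 2. The median difference between the groups was then -0.03, with 51 negative values of 81, and 0 genes were called. Library 3 then lay at -0.13, -0.18, -0.04, -0.009 and -0.14 in complexes I to V.

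**Figure D5:**
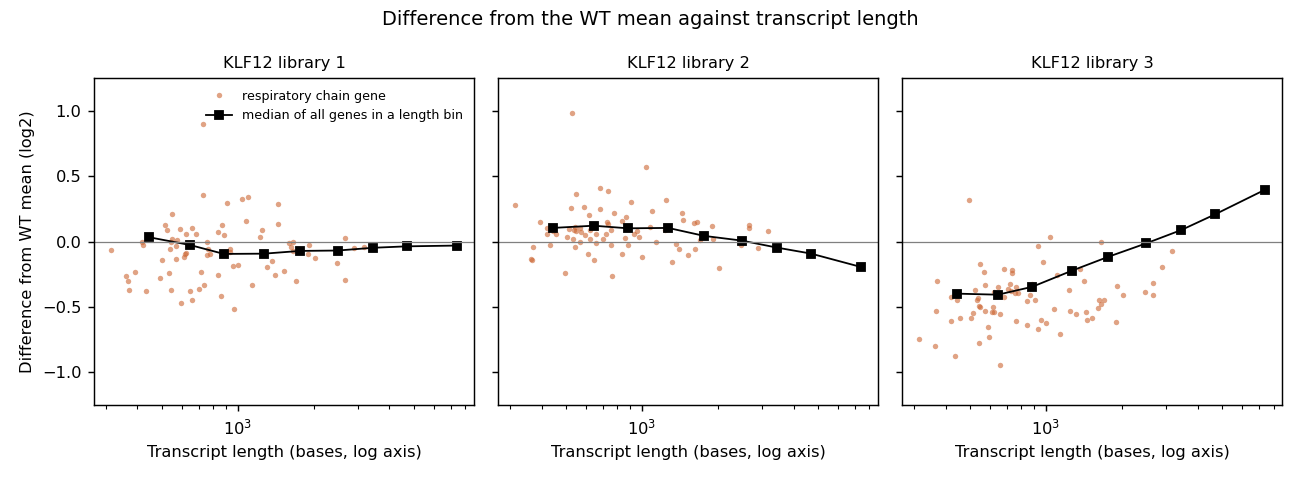
Points are respiratory chain genes and black squares the medians of all tested genes in 9 length bins, as the log2 difference of each KLF12 library from the WT mean against transcript length on a log axis; 78 of 83 genes are drawn. In library 3 the squares go from -0.40 in the shortest bin to 0.40 in the longest, while in library 2 they go from 0.11 to -0.19.

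Other groups of abundant housekeeping genes were also low in KLF12 library 3: cytosolic ribosomal protein genes, with a median length of 780 bases, and proteasome genes, with 1512. The 79 tested ribosomal protein genes had medians of 0.19, 0.21 and -0.38 in KLF12 libraries 1, 2 and 3, and the 35 proteasome subunit genes -0.10, 0.06 and -0.39, beside -0.07, 0.08 and -0.44 for the respiratory chain. Without library 3 the median difference was 0.21 for ribosomal protein genes, -0.007 for proteasome genes and 0.002 for the respiratory chain. In that fit the groups also differ in Ddx3y. There limma called 14 of the 79 ribosomal protein genes higher and 1 lower, and 0 proteasome genes. Over all genes 0.725% were called higher and 1.90% lower in the same fit. With the length trend removed, library 3 lay at -0.03 for ribosomal protein, -0.26 for proteasome and -0.12 for respiratory chain genes. The difference between these groups of genes was not tested.

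Cell type markers also differed between libraries, and in whole fetuses fewer cells of a type and less RNA per cell cannot be told apart. The summed level of 12 neural tube markers was 333 FPKM in KLF12 library 3, 150 and 163 FPKM in KLF12 libraries 1 and 2 and 169 to 198 FPKM in WT. For 11 tested cardiac muscle markers, from a tissue rich in mitochondria, it was 942 FPKM in library 3. In the other KLF12 libraries it was 1345 and 1662 FPKM, and in WT 1510 to 1655 FPKM. By limma 3 of the 11 were called lower, against 0.634% of all genes. For 11 primitive erythroid markers the sum was 1337, 3328 and 4265 FPKM in KLF12 and 5130 to 11703 FPKM in WT, with 0 called. For 12 yolk sac and visceral endoderm markers it was 467 to 697 FPKM in KLF12 and 146 to 556 FPKM in WT, with 0 called, and for 12 mesoderm markers 142 to 202 and 222 to 234 FPKM, with 0 called. Without library 3, 2 erythroid, 3 cardiac and 1 mesoderm marker were called lower, against 1.90% of all genes, and 1 yolk sac marker higher, against 0.725%. Among the yolk sac markers 1 or more were listed at 0 in WT library 3 and KLF12 library 1. At an unadjusted limma p under 0.05 there were 10 erythroid, 5 cardiac, 7 yolk sac, 5 mesoderm and 2 neural tube markers, against 10.9% of all genes. The part of cell makeup and fetal sex in the respiratory chain values was not tested.

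The other genes of the pathway gave no calls either. Of the assembly factors, which build the complexes but are not part of them, 0 of 16 for complex I, 0 of 9 for complexes II and III, 0 of 23 for complex IV and 0 of 5 for complex V passed, with medians of -0.04, -0.15, -0.10 and -0.09. Without KLF12 library 3 these medians were 0.09, -0.14, -0.12 and -0.03. At an unadjusted p under 0.05 there were 0, 1, 1 and 0 of them. Sdhaf3, an assembly factor of complex II, was at 20.5, 13.4 and 12.2 FPKM in WT and at 7.22, 11.95 and 8.61 FPKM in KLF12, a difference of -0.67 (limma adjusted p = 0.334) without overlap, and -0.63 without library 3. Another list held subunits outside the symbol rule, electron carriers, Dhodh and the Coq and Pdss genes, which serve to make ubiquinone. Of its 16 tested genes 0 passed, and 2 had an unadjusted limma p under 0.05, Cycs and Pdss1. The median of the 16 was -0.18 with 13 negative values, and -0.15 with 11 negative values without library 3. Cycs, which encodes cytochrome c, was at 35.6, 43.5 and 43.2 FPKM in WT and at 26.8, 35.3 and 30.3 FPKM in KLF12. All KLF12 values were below the WT values, with a difference of -0.40 ± 0.15 (SE), limma adjusted p = 0.363, and -0.39 without library 3.

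Of 16 tricarboxylic acid cycle genes 0 passed, with 2 at an unadjusted p under 0.05, 15 negative values and a median of -0.15, and -0.04 without KLF12 library 3. Cs, citrate synthase, was at 99.0, 110 and 104 FPKM in WT and at 66.5, 82.7 and 91.2 FPKM in KLF12. The groups were separate, and here KLF12 library 1 was lowest and library 3 nearest to WT. The difference was -0.39 ± 0.14 (SE; limma adjusted p = 0.348), and -0.49 without library 3 (adjusted p = 0.0727). Of 24 import genes 0 passed and 3 had an unadjusted p under 0.05, with a median of -0.09, and 0.007 without library 3. Of 18 regulators of mitochondrial biogenesis 15 were tested and 0 passed, also at an unadjusted p under 0.05, with a median of 0.10 and 10 positive values, and 0.08 with 10 positive values without library 3. Nrf1, for the factor whose letters are shown above, was at 24.9 to 29.0 FPKM in WT and 27.7 to 31.7 FPKM in KLF12, and Tfam, which maintains and transcribes mitochondrial DNA, at 36.3 to 41.7 and 38.1 to 47.8 FPKM. Ppargc1a, the coactivator PGC-1alpha, was under the filter, at 0.12 to 0.77 FPKM over the 6 libraries. The 13 mitochondrially encoded subunits had no row and were not analysed here. Sdhaf3, Cycs, Cs, Nrf1, Tfam and Ppargc1a were chosen after their values were seen, as were Ndufv2, Ndufa10, Ndufv3, Ndufb4c, Uqcrq, Uqcrc2, Cox5a, Cox7a2l, Atp5mpl and Ndufs5.

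Values of 4 genes could not be read as levels. Ndufs3, a core subunit of complex I (NCBI gene 68349), was listed at 0 in WT libraries 1 and 3 and KLF12 library 1, and at 36.3, 18.7 and 15.4 FPKM in WT library 2 and KLF12 libraries 2 and 3. Uqcrc1, a core protein of complex III, was listed at 0 in 5 libraries and at 7.03 FPKM in KLF12 library 2. Ndufa7 was listed at 0 in 4 libraries, at 40.7 FPKM in WT library 3 and at 5.85 FPKM in KLF12 library 2, and Ndufb4b was listed at 0 in 3 libraries. Partner subunits were well above 0 everywhere, such as Uqcrc2 at 85.1 to 143 FPKM. Ndufs3 and Ndufa7 gave the highest and the lowest difference of complex I and Uqcrc1 the highest of complex III. These differences are not read as changes in level, but all 4 genes stay in the counts and medians of the tested genes above.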

How the data were processed

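RNA was sequenced from 3 WT and 3 KLF12-overexpressing fetuses. The authors deposited FPKM values with 2 decimals, and no counts; per the submitters' processing notes, the build is mm9 and the tools include RSEM 1.2.8, HISAT2 2.0.4 and CASAVA, with no roles given. Other upstream steps are not given in the sources used here. Symbols came from the RefSeq gene table of GRCm38.p6 (16874 of 17741 rows matched) and transcript lengths from GENCODE M21 (82 of the 84 genes). Differences were fitted as log2(FPKM + 1) with limma 3.58.1 (R 4.3.3, variance trend) over the 12141 genes that averaged 1 FPKM or more, and called at a Benjamini-Hochberg adjusted p under 0.05. Single shares used exact permutation tests.

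On simulated data with the spread of these 12141 genes, log2 changes of 1 were recovered for 56 of 100 genes and of 2 for 93 of 100, with 6 unchanged genes called. Each gene was drawn independently, so a shift shared by many genes, as in KLF12 library 3, was not simulated. Smaller changes, like those of most respiratory chain genes, were not simulated either. Depth was estimated from the step between low values, at 14600000 to 16600000 fragments. It is a rough value, since the step was weak (coherence 0.168 to 0.255, where 1 is a perfect step). The step was also searched only within a preset range, which limits the depths that could be found. On these depths the counting error of a median member was 2.16% to 2.79%.

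The members and lists were chosen with earlier results of these data known. Named by rule were called genes, the highest level and the highest and lowest difference of each complex, isoform pairs and the 3 highest and 3 lowest coefficients of variation. Alternatives covered pseudocount, filter, scaling, variance trend, replicate block, length trend and each library left out. One member enters the counts and medians but is not reported here.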

Additional observations from a re-analysis of the deposited data

How the results depend on the processing

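The number of respiratory chain genes called was 0 in each setting run except without KLF12 library 3, where it was 1, Atp5g2; with each library left out it ranged from 0 to 1. Their median difference was -0.26 to 0.002 with each library left out and -0.14 to -0.03 in the other settings. The move to 0.002 without KLF12 library 3 is smaller than the SD between libraries. That SD includes library 3, which makes it large, so it cannot show whether the move is small. Set against the WT mean, the medians of the WT libraries were -0.003, -0.02 and 0.03. Over all genes 89 were called, with no filter 29, as TPM 55, with the length trend removed 158 and with each library left out 14 to 319, the highest without KLF12 library 3. The cause was not tested. Same-numbered libraries deviated with correlations of 0.03, -0.11 and 0.04, so the numbers gave no sign of pairing; with the replicate block 64 genes and 0 members were called.

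Among the genes named by rule, some differences changed sign, none of them called. Other members also changed sign and are not listed. Over all tested members, 9 of 83 differences were positive in the main fit, and 30 of 81 with the length trend removed. As TPM Sdhc was 0.028 and Atp5d 0.027, and after quantile normalization 0.065 and 0.079. With the length trend removed Sdhc was 0.006, Uqcr11 0.034, Cox7c 0.001, Cox4i1 0.011, Cox6a1 0.012, Cox6b2 0.073 and Atp5d 0.091. With each library left out, differences ran from -0.165 to 0.061 for Sdhd, -0.094 to 0.107 for Sdhc, -0.206 to 0.061 for Uqcr11, -0.242 to 0.017 for Cox7c, -0.199 to 0.044 for Cox4i1, -0.115 to 0.524 for Cox4i2, -0.296 to 0.056 for Cox6b1, -0.257 to 0.132 for Cox6b2, -0.24 to 0.05 for Uqcrh and -0.044 to 0.033 for Atp5d. For the genes listed at 0 in some libraries they ran from -1.794 to 0.925 for Ndufa7, 0 to 1.503 for Uqcrc1 and -1.345 to 0.124 for Ndufb4b.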

Other observations

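Zeros like those of Ndufs3, Ndufa7 and Uqcrc1 were not limited to this group. Of 9744 rows with at least 5 FPKM in 1 library, 146 (1.5%) were listed at 0 in another, 64 of them in 3 or more libraries, and 38 in all libraries of 1 group but not of the other. Of the respiratory chain genes, 4 were among the 146. Whether these zeros are failed estimates was not tested.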
